A study of Mus musculus with 304 samples.

Results

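Granule cells of the dentate gyrus were compared with each other 1 day after kainate by whether they held transcripts of Penk, the gene for proenkephalin. Of the 58 cells of the injected side whose libraries were labelled as passing quality control, 29 held Penk at 100 CPM (counts of the gene scaled by all reads of the cell) or more and are called Penk-high, and 26 held it below 10 CPM and are called Penk-low. The remaining 3 lay between these limits. The whole series has 304 labelled samples, of which 291 had a column in the count table and 252 of those passed quality control.

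Each library was made from the cytosol of a single mouse granule cell drawn into a patch pipette, so nuclear RNA is under-represented and the amount drawn can differ from cell to cell. Kainic acid, an agonist of kainate-type glutamate receptors, had been injected into the hippocampus (70 nl at 5 mM) either 1 day or 14 days before recording. Other groups used here are 29 cells taken 14 days after kainate and 31 control cells of mice without injection. The labels give no strain, genotype, age, sex or animal for any of these cells. Since no animal is named, the day 1 cells count as 1 sample, no test over cells was made, and every difference below is a description of these libraries.

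Granule cells are the excitatory cells that carry input from the entorhinal cortex to area CA3 through their mossy fibres. Besides glutamate they store peptides in dense-core vesicles, and seizure-like activity is known to raise several of these peptides, enkephalin among them. Proenkephalin is cut at pairs of basic residues into Met-enkephalin and Leu-enkephalin, which act on the delta and mu opioid receptors.

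The classes were chosen on Penk itself (ENSMUSG00000045573.9, GRCm38 chromosome 4, 4133531 to 4138819, minus strand), whose coding sequence of 804 bases holds 6 copies of Met-enkephalin and 1 of Leu-enkephalin. The stretches are shown because the peptides they code for define the cells. Capitals mark the 15 bases of each pentapeptide, lower case the 6 bases on either side. These flanks code for pairs of basic residues, except those after Met-enkephalin copy 4 (Arg-Ser) and copy 6 (Arg-Phe). Sequences are from GRCm38 and the GENCODE M21 annotation, in order along the coding sequence.
Met-enkephalin, copy 1: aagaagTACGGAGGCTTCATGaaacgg
Met-enkephalin, copy 2: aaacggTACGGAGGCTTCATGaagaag
Met-enkephalin, copy 3: aagaggTATGGCGGCTTCATGaagaag
Met-enkephalin, copy 4: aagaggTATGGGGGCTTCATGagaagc
Met-enkephalin, copy 5: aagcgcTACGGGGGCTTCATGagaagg
Leu-enkephalin: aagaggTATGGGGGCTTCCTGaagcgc
Met-enkephalin, copy 6: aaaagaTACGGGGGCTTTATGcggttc
The 6 Met-enkephalin copies are written with 5 different sets of codons.

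Penk spanned a wide range among the Penk-high cells, with a lowest cell at 137 CPM, a median of 5992 CPM and a highest cell at 60489 CPM. The Penk-low cells lay between 0 and 4.71 CPM, and 17 of the 26 had 0 reads. The 3 cells between the classes held 77.4, 89.02 and 94.6 CPM, so the nearest values on either side of the upper limit were 137 and 94.6 CPM and those around the lower limit 77.4 and 4.71 CPM. With the same limits 18 of 29 day 14 cells and 5 of 31 control cells reached 100 CPM, the highest control cell at 619 CPM.

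The cells' titles carry numbers, and Penk followed them. Titles K75 to K99 held 4 Penk-high cells and 20 Penk-low cells, while titles K60 to K74 and K101 to K128 held 25 Penk-high cells and 6 Penk-low cells. These sets of titles also differed in transcripts of 4 genes of the Y chromosome (Ddx3y, Eif2s3y, Kdm5d and Uty). Their summed level was 1 CPM or more in 22 of the 25 cells titled K75 to K99, up to 737 CPM, and at most 0.353 CPM in the 33 others. No label says what a run of titles stands for, so the Penk class and whatever separates the runs (animal, sex or day) cannot be told apart in the pooled comparison. Log2 ratios within each run are therefore given beside the pooled values of the genes a result turns on and of the genes whose direction a run turns.

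**Figure D1:**
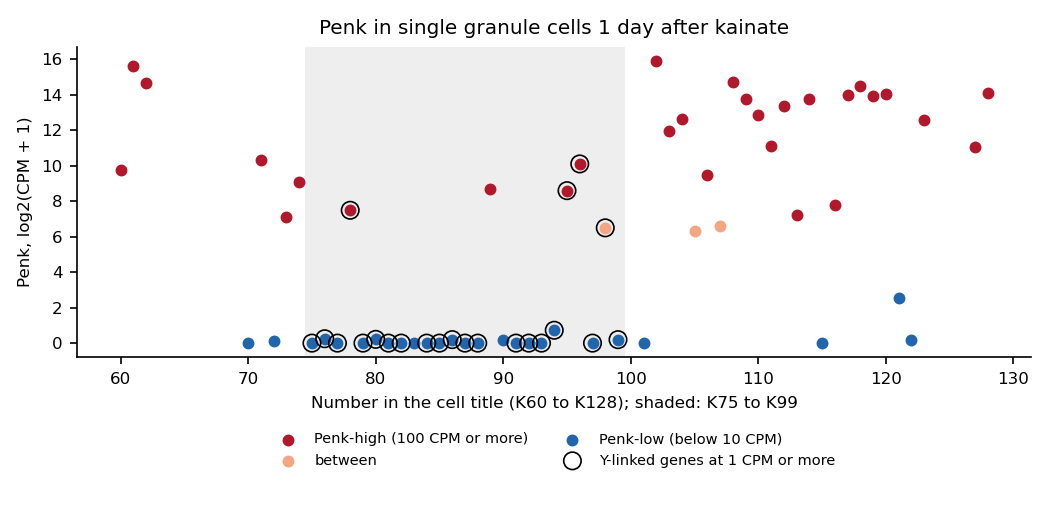
Penk in each of the 58 day 1 cells, as log2(CPM + 1), against the number in the cell's title; colours give the Penk class, black rings mark cells with Y-linked genes at 1 CPM or more, and the shaded area covers titles K75 to K99. Of the 26 Penk-low cells, 20 lie in the shaded area, which holds 4 of the 29 Penk-high cells.

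Depth did not separate the classes, with a median of 6839040 reads per Penk-high cell and 6803380 per Penk-low cell (2655957 to 27708910 over both). Control cells were shallower, with a median of 1738610 reads (32487 to 7923833). Zeros and shares of cells with a read are therefore not alike between control and day 1 cells. Penk-high libraries held more genes, a median of 5944 against 4924 in Penk-low cells, or 4513 against 3836 with each cell thinned to 100000 reads, and median mitochondrial shares were 0.201% in Penk-high cells and 0.192% in Penk-low cells. Prox1, the transcription factor that defines granule cells, had reads in 27 of 29 Penk-high cells and 17 of 26 Penk-low cells. Summed granule cell markers had a median of 1258 CPM in Penk-high cells (293 to 3862) and 1700 CPM in Penk-low cells (0 to 6278). In 4 Penk-low cells these markers stood below 50 CPM or below the mossy cell markers. The cell titled K115 had 0 reads of all 15 granule cell markers, and K70 held them at 13.8 CPM. K101 held mossy cell markers at 3585 CPM, of which 3375 CPM were Csf2rb2, with Calb2 and Drd2 at 0, and K91 held 143 CPM of them, all from Nmb.

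The comparisons within runs rest on few cells of 1 class, 4 Penk-high cells (K78, K89, K95 and K96) in K75 to K99 and 6 Penk-low cells in the other titles, of which K70, K101 and K115 are short of granule cell markers. Of 73 genes followed through these comparisons, 18 had the opposite sign to the pooled ratio within K75 to K99 and 9 within the other titles. Leaving out the Penk-high cell that held most of a gene turned the sign within K75 to K99 for 20 of the 73. Leaving out K70, K101 and K115 turned the sign within the other titles for 6.

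Across the transcriptome the classes differed in many genes by a small number of cells each. Genes counted as measured were those read in 20% or more of a class and at 5 CPM or more in its summed counts, which left 9337 genes besides Penk. A measured gene is called higher or lower here where the log2 ratio of Penk-high over Penk-low cells passed 1 in the same direction by 3 routes, from summed counts, from the mean over cells, and from cells thinned to 100000 reads, each after adding 1 CPM. By this rule 1216 genes (13%) were higher and 664 genes (7.11%) lower in Penk-high cells. Within titles K75 to K99 the split turned round, with 13.5% higher and 31.9% lower, and within the other titles it was 33.8% and 9.6%. The median log2 ratio of all measured genes was 0.07 pooled, -0.28 within K75 to K99 and 0.47 within the other titles, so single values within a run are to be read against those medians. A summed log2 ratio above 0 was found for 53.7% of measured genes pooled, 41.5% within K75 to K99, 61.3% within the other titles, 49.1% within K60 to K99, 62.6% within K101 to K128 and, at day 14, 55.9%. Of the 1216 higher genes, 467 had a summed log2 ratio of 1 or more in both runs, as did 746 of all 9337 measured genes. Of the 664 lower genes, 241 stood at -1 or less in both runs, as did 511 of all measured genes.

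Between any pair of the 58 cells the correlation of log levels over 10738 genes ran from 0.16 to 0.48 with a median of 0.32, so single cells differed widely from each other within as well as between classes. No gene described below separated the classes: the ranges overlapped for all 12 highest and all 12 lowest genes.

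The 12 highest genes were those with the greatest smallest ratio by 4 routes, the fourth being the summed ratio without the cell that held most of the gene. Both the 12 highest and the 12 lowest also had to keep the sign of the summed ratio in titles K60 to K99 and in K101 to K128. Npnt, which codes for the extracellular matrix protein nephronectin, a ligand of integrins, stood at 150 CPM in Penk-high cells (exact Poisson interval 149 to 152) and 8.27 CPM in Penk-low cells (7.87 to 8.69). Its median was 69.6 CPM in Penk-high cells, with a range of 0 to 1054, against a median of 0 and a range of 0 to 265 in Penk-low cells. A read of it was found in 22 of 29 Penk-high cells (75.9%, exact Clopper-Pearson interval 56.5% to 89.7%) and in 6 of 26 Penk-low cells (23.1%, 8.97% to 43.6%). Control cells were not devoid of Npnt, at 80.7 CPM with reads in 15 of 31 cells, so the Penk-low cells lay below them. Its log2 ratio was 0.78 within K75 to K99, or -0.27 without K78, and 3.44 within the other titles. These intervals cover counting error only, not the spread between cells or animals.

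Gsg1l, a transmembrane auxiliary subunit of AMPA receptors, stood at 231 CPM in Penk-high cells (229 to 233) and 16.3 CPM in Penk-low cells (15.7 to 16.9), a 14.2-fold difference. Of the Penk-high cells 16 reached 100 CPM, with a median of 105.1 CPM and a highest cell at 768 CPM. Of the Penk-low cells 1 did, at 229 CPM, and the median was 0. Control cells held 21.7 CPM, close to the Penk-low level, and the log2 ratio was 3.32 within the other titles. Within K75 to K99 it was 2.59, which rested on the cell K96 at 260 CPM, with K78 at 7.45 CPM and K89 and K95 at 0, and without K96 it was -2.18. Gsg1l was among the 4 of the 12 highest genes that also passed the rule in day 14 cells divided at the same Penk limits (18 Penk-high, 9 Penk-low), at 13.7 CPM against 0 reads in Penk-low day 14 cells. At day 14 27.9% of all measured genes were higher by this rule, and 3 of the 12 passed it in the opposite direction.

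Others among the 12 were genes of transport, metabolism, chromatin and the cytoskeleton. Slc5a3, the sodium-coupled myo-inositol transporter, stood at 48.7 CPM in Penk-high cells and 1.09 CPM in Penk-low cells, with reads in 15 and 5 cells, but its span lies wholly within that of Mrps6 on the same strand, and reads of the pair may not be separable. Cdyl2, a chromodomain protein, stood at 99.52 CPM in Penk-high cells and 4.97 CPM in Penk-low cells, where a single cell at 333 CPM held most of it. Arhgef17, an exchange factor for small GTPases, stood at 53.7 CPM in Penk-high cells and 2.38 CPM in Penk-low cells. The centrosomal protein gene Cep350 stood at 48.9 CPM in Penk-high cells and 3.61 CPM in Penk-low cells. Pdk1, a kinase that inhibits pyruvate dehydrogenase, stood at 66.3 CPM in Penk-high cells and 7.05 CPM in Penk-low cells. Guf1, a mitochondrial translation factor, stood at 103.8 CPM in Penk-high cells and 15.6 CPM in Penk-low cells. For Cacul1, Zbtb45 and Dpy19l1 the log2 ratios were 2.99, 3.08 and 3.30. The ratio of Cdyl2 within K75 to K99 was 3.12, or -2.99 without K96, and that of Arhgef17 was 1.64, or -0.11 without K95. Most of these levels rest on fewer than 20 positive cells: between 44.8% and 75.9% of Penk-high cells and between 7.69% and 30.8% of Penk-low cells had a read of each of the 12.

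**Figure D2:**
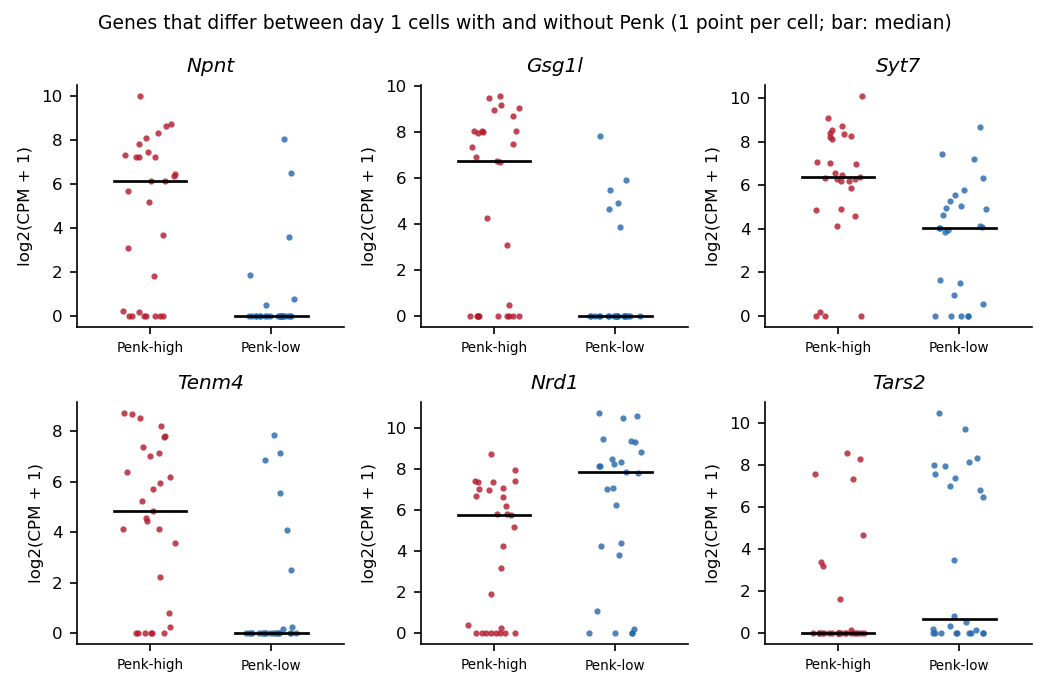
Log2(CPM + 1) of 6 genes in single day 1 cells, Penk-high cells (red, n = 29) left and Penk-low cells (blue, n = 26) right, with the median as a bar; Npnt and Gsg1l are among the 12 highest genes, Syt7 and Tenm4 are list members, Nrd1 and Tars2 are among the 12 lowest. Cells at 0 occur in both classes for each of the 6 genes, and the ranges overlap.

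The 12 lowest genes were led in level by Nrd1, the gene of nardilysin, a metalloendopeptidase that cleaves before basic residues in dibasic sites. It stood at 87.7 CPM in Penk-high cells (86.5 to 88.8) and 340 CPM in Penk-low cells (338 to 343), with a median of 52.8 CPM and a highest cell of 425 CPM in Penk-high cells, against 229 and 1740 CPM in Penk-low cells. Nearly as many cells held a read, 21 of 29 Penk-high cells and 22 of 26 Penk-low cells, so the level differed more than the share. Control cells lay between the classes at 182 CPM. The log2 ratio was -3.19 within K75 to K99. Within the other titles it was -2.43, but this rested on the cells short of granule cell markers, K70 at 1446 CPM, K101 at 662 CPM and K115 at 1541 CPM, and without them the levels were 94.7 CPM in Penk-high cells and 89.5 CPM in the 3 remaining Penk-low cells. At day 14 the classes stood at 121.8 CPM (Penk-high) and 128.4 CPM (Penk-low).

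Utp3, a factor of small ribosomal subunit assembly, stood at 73.4 CPM in Penk-high cells, 271 CPM in Penk-low cells and 55.5 CPM in control cells. Tars2, the mitochondrial threonyl-tRNA synthetase, stood at 27.3 CPM in Penk-high cells and 143 CPM in Penk-low cells, with reads in 9 and 17 cells. Txnrd1, the cytosolic thioredoxin reductase, had a log2 ratio of -2.06. Bag5, a co-chaperone of Hsp70, stood at 35.9 CPM in Penk-high cells and 130 CPM in Penk-low cells, and Kat2a, a histone acetyltransferase, at 16.5 CPM in Penk-high cells and 57.7 CPM in Penk-low cells. Tmem63c, of a family of stretch-activated channels, stood at 19.6 CPM in Penk-high cells and 108.8 CPM in Penk-low cells. Nudt4, Tex261, Rnf19b, Pgm2l1 and Ddx20 completed the 12, with log2 ratios from -2.29 to -1.99. All 12 were lower in both runs of titles, which the sign required by the naming rule had in large part set. Nrd1 (0.079) and Pgm2l1 (-0.0027) stood near 0 in the other titles without K70, K101 and K115. Within K101 to K128 without the cells short of granule cell markers, Tmem63c (4.17) and Pgm2l1 (4.34) were higher, from 19 Penk-high and 2 Penk-low cells.

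**Figure D3:**
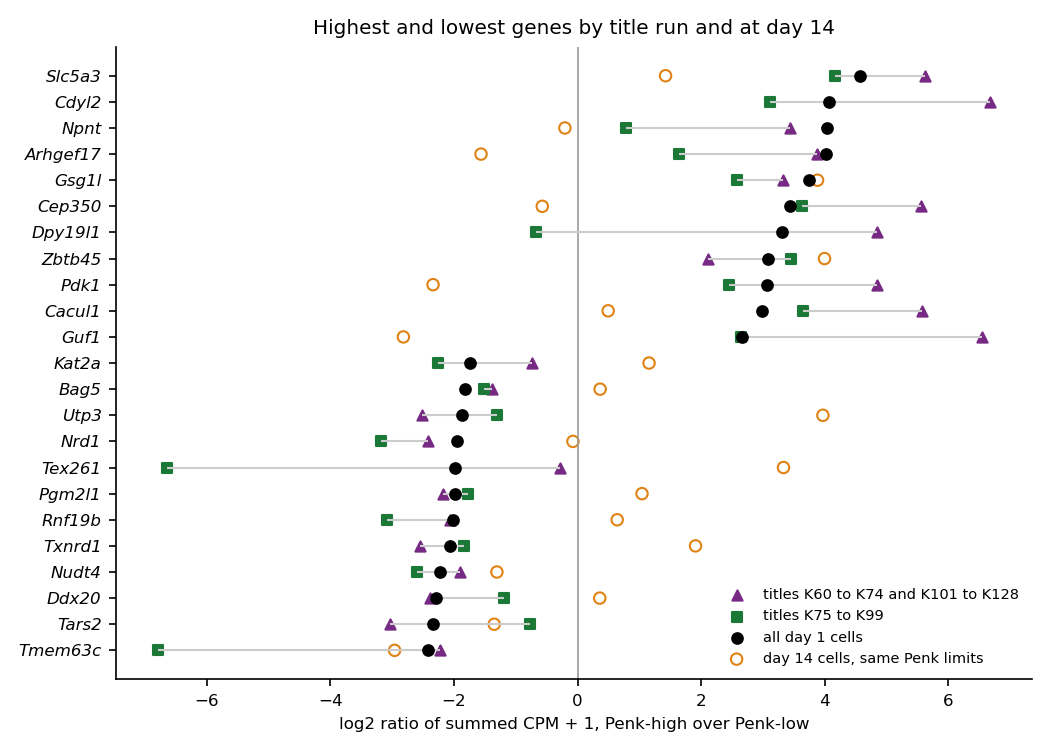
Log2 ratio of summed CPM + 1, Penk-high over Penk-low cells, for the highest and lowest genes in all day 1 cells (black), in titles K75 to K99 (green squares), in the other titles (purple triangles) and, where measured, in day 14 cells divided at the same limits (open orange circles). The plotted genes other than Dpy19l1 (-0.67 within K75 to K99) keep their side in both runs of titles, which rest on 4 Penk-high cells in K75 to K99 and on 6 Penk-low cells in the others, while the day 14 points lie on both sides of 0. The naming rule required their sign in K60 to K99 and in K101 to K128, which in large part set the agreement between the runs.

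Day 14 cells, which had no part in choosing these genes, did not repeat the day 1 order. Of the 12 highest genes 10 were measured there, 5 with the same sign and 5 with the opposite one. Of the 12 lowest, 4 had the same sign and 8 the opposite one. At day 14, 27.9% of 9833 measured genes were higher and 19.1% lower in Penk-high cells, from 18 and 9 cells. Arhgef17 stood at a log2 ratio of -1.56 there and Utp3 at 3.97, against 4.02 and -1.87 at day 1.

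Genes of peptides and of the machinery that stores them were called in both directions. Of 12 measured neuropeptides and granins 1 was higher (8.33%, against 13% of all genes) and 2 were lower (16.7%, against 7.11%), with a median log2 ratio of -0.54 (0.07 over all genes), 0.24 within K75 to K99, -0.40 within the other titles and -0.23 without the 4 cells short of granule cell markers. Of 12 measured genes of peptide processing and dense-core vesicles 2 were higher (16.7%), Pcsk1 and Ptprn2, and 1 was lower (8.33%), Cadps. Their median was 0.12, -0.41 within K75 to K99 and 0.55 within the other titles. Scg2, the precursor of secretoneurin, was among the most abundant peptide genes in both classes, at 4989 CPM in Penk-high cells, 4589 CPM in Penk-low cells and 1849 CPM in control cells, with a log2 ratio of 0.30 within K75 to K99 and -0.42 within the other titles.

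Npy, the precursor of neuropeptide Y, stood at 149 CPM in Penk-high cells, 525 CPM in Penk-low cells and 2.89 CPM in control cells. Reads were found in 15 of 29 Penk-high cells and 15 of 26 Penk-low cells. A single Penk-low cell, K70, held 9261 CPM, and without it the log2 ratio was -0.20 instead of -1.81. The ratio was 0.07 within K75 to K99 and -3.24 within the other titles. Within K101 to K128, which K70 is not part of, Npy was higher, at 213 CPM in Penk-high cells (8 of 19 with a read) against 5.53 CPM in Penk-low cells (2 of 4). Pdyn, the precursor of dynorphins and so the other opioid peptide gene of granule cells, stood at 258 CPM in Penk-high cells and 422 CPM in Penk-low cells. K70 again held the most, 6048 CPM, and without it the log2 ratio was 0.41 instead of -0.71. The ratio was 1.28 within K75 to K99, or -0.19 without K89, and -1.95 within the other titles. Within K101 to K128 Pdyn stood at 235 CPM in Penk-high cells, from 7 of 19 cells, and had 0 reads in the 4 Penk-low cells. Npy and Pdyn thus kept no single direction across the titles. Cartpt, a peptide precursor, stood at 67.95 CPM in Penk-high cells and 8.37 CPM in Penk-low cells, with reads in 7 and 3 cells, but its log2 ratio was -0.15 within K75 to K99. Pcsk1, the convertase that cleaves propeptides at dibasic sites, stood at 87.95 CPM in Penk-high cells and 28.5 CPM in Penk-low cells, with log2 ratios of 2.64 within K75 to K99 and 0.87 within the other titles. Chga, which codes for chromogranin A, stood at 331 CPM in Penk-high cells and 625 CPM in Penk-low cells, with ratios of 0.23 within K75 to K99 and -0.47 within the other titles. Vgf stood at 272 CPM in Penk-high cells and 267 CPM in Penk-low cells, with ratios of 0.31 and -0.72 in these runs. Nucb2, the precursor of nesfatin, stood at 3.85 CPM in Penk-high cells and 48.1 CPM in Penk-low cells, from 2 and 6 cells, with ratios of -6.09 within K75 to K99 and 2.41 within the other titles. None of the 4 opioid receptor genes reached the level of a measured gene in either class, the highest being Oprl1 at 4.10 CPM in Penk-high cells, from 1 cell, and 0 reads in Penk-low cells.

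Genes that stood far above control cells in the day 1 cells as a whole were present in both classes. Id2, an inhibitor of basic helix-loop-helix factors, stood at 1220 CPM in Penk-high cells (1216 to 1225), 1195 CPM in Penk-low cells (1190 to 1200) and 127.9 CPM in control cells. The median cell held 1182 CPM among Penk-high cells, 1207 CPM among Penk-low cells and 0 among control cells, and reads were found in 27 of 29 Penk-high cells and in all 26 Penk-low cells. Both day 1 classes thus stood above the control cells in Id2. Sorcs3, a Vps10-type sorting receptor, stood at 705 CPM in Penk-high cells, 343 CPM in Penk-low cells and 0.432 CPM in control cells. Its pooled log2 ratio of 1.04 shrank to 0.60 within K75 to K99, or -2.14 without K96, and 0.38 within the other titles. Inhba, the gene of the activin beta-A subunit, stood at 629 CPM in Penk-high cells, 799 CPM in Penk-low cells and 46.4 CPM in control cells. Within the other titles it stood at 594 CPM in Penk-high cells against 1603 CPM in Penk-low cells, of which 5 of 6 held at least 1209 CPM. Of those 5 cells 3 were K70, K101 and K115, and without them the Penk-low level was 824 CPM. The order was reversed within K75 to K99, 923 CPM in Penk-high cells against 478 CPM in Penk-low cells, by the cell K96 at 2554 CPM, without which the Penk-high level was 161 CPM. Without the 4 cells short of granule cell markers the pooled levels were 629 CPM in Penk-high cells and 524 CPM in Penk-low cells, so the direction of Inhba depended on single cells.

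Anxa2, a calcium-dependent membrane-binding annexin, leaned towards the Penk-high cells. It stood at 292 CPM in Penk-high cells, 98.2 CPM in Penk-low cells and had 0 reads in control cells. Of Penk-high cells 20 of 29 reached 100 CPM, with a median of 229 CPM, and of Penk-low cells 6 of 26, with a median of 0. The log2 ratio was 1.89 within K75 to K99 and 1.11 within the other titles (0.47 without K70, K101 and K115). Within K101 to K128 without K101 and K115 it was -0.19, from 19 Penk-high and 2 Penk-low cells. At day 14 Anxa2 stood at 62.4 CPM in Penk-high cells against 0 reads in Penk-low cells. Ltbp1, a binding protein of latent TGF-beta, stood at 146 CPM in Penk-high cells, 35.1 CPM in Penk-low cells and 0.0744 CPM in control cells, with reads in 18 and 4 day 1 cells and a log2 ratio of -0.16 within K101 to K128. Timp1, an inhibitor of metalloproteases, stood at 83.6 CPM in Penk-high cells, 13.4 CPM in Penk-low cells and 0.119 CPM in control cells, with a ratio of -0.60 within K60 to K99. Both were higher within K75 to K99 only by the cell K96. Anxa2 and Anxa5 were the higher members (33.3%, against 13% of all genes) among 6 measured annexin genes with S100a10, none of which was lower.

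**Figure D4:**
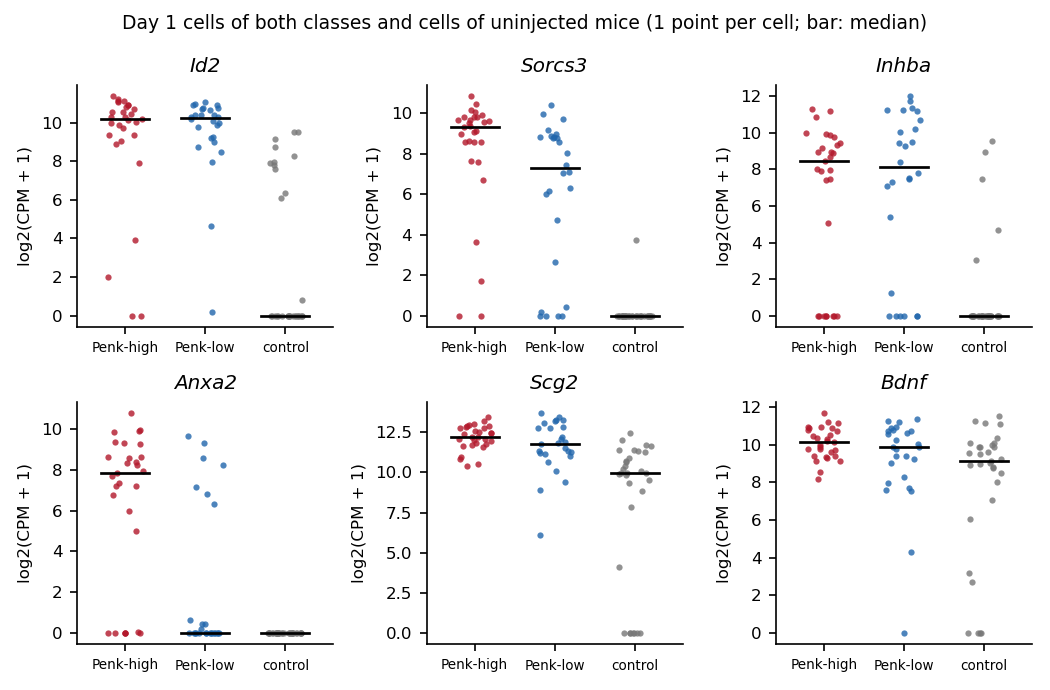
Log2(CPM + 1) of 6 genes in single Penk-high cells (red, n = 29), Penk-low cells (blue, n = 26) and control cells (grey, n = 31), with the median as a bar. The ranges of all 6 genes overlap between the day 1 classes. Anxa2 has a median of 229 CPM in Penk-high cells and 0 in Penk-low and control cells.

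Activity-regulated genes were split evenly when the runs were pooled, 22 of 44 on either side of 0 with a median of 0.02, and 3 were higher (6.82%, against 13% of all genes) and 2 lower (4.55%, against 7.11%). Within K75 to K99 26 of the 44 stood above 0, with a median of 0.33 (-0.28 over all genes). Within the other titles 27 did, with a median of 0.29 (0.47 over all genes). Bdnf, a neurotrophin, stood at 1130 CPM in Penk-high cells, 1022 CPM in Penk-low cells and 888 CPM in control cells, and its log2 ratio was -0.20 within K75 to K99 and -0.17 within the other titles. Arc, a regulator of AMPA receptor trafficking, stood at 1640 CPM in Penk-high cells, 1993 CPM in Penk-low cells and 1750 CPM in control cells, with a ratio of 0.59 within the other titles. Fos, a subunit of AP-1, stood higher in the sum of Penk-high cells (1014 CPM against 578 CPM in Penk-low cells) but lower in the median (29.05 CPM against 478 CPM in Penk-low cells), with reads in 19 of 29 Penk-high cells and 20 of 26 Penk-low cells, and its ratio was -0.43 within K75 to K99. Egr2 stood at 91.9 CPM in Penk-high cells and 23.7 CPM in Penk-low cells. Nr4a2 stood at 34.8 CPM in Penk-high cells and 212 CPM in Penk-low cells, though its log2 ratio was 0.48 within K75 to K99 and 1.59 within K101 to K128. Of 19 AP-1 and CREB/ATF factors 1 was higher (5.26%) and 2 were lower (10.5%).

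Proenkephalin transcription is known to depend on a CRE-like enhancer, so the promoters of a gene alike in both classes and of a gene that was higher in Penk-high cells are shown. Both windows run from 250 bases before to 50 bases after the gene's start and come from RefSeq on GRCm38. Capitals mark the motif found. The Scg2 window (chr1:79439977-79440276, minus strand) holds a CRE (TGACGTCA) that begins 68 bases before the start, and the Anxa2 window (chr9:69453433-69453732, plus strand) holds an AP-1 motif, TGACTCA on the other strand. Both strands were searched, and the CRE was found in 1.79% and the AP-1 motif in 5.20% of 32851 promoter windows.
Scg2: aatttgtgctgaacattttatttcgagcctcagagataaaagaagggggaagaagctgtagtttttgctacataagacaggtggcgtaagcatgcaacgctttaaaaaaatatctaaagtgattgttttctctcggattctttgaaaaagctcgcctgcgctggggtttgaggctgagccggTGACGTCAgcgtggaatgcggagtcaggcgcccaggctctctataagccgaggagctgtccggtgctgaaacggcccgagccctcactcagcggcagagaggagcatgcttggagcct
Anxa2: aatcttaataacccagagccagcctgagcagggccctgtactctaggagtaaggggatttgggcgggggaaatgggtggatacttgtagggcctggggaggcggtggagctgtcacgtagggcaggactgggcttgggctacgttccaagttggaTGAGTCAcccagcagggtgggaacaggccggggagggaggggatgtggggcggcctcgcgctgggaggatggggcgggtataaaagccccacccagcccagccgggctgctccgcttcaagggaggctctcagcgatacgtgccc
Of the 12 highest genes 6 had a window in the table and of the 12 lowest all 12, and none of these held a CRE. A match is only a run of letters, and binding was not measured.

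Genes of wiring, adhesion and glutamate reception had shares of higher members above that of all genes when the runs were pooled. For adhesion and glutamate receptor genes the share did not exceed that of all genes within either run of titles. Of 38 measured axon guidance and growth genes 11 were higher (28.9%, against 13% of all genes) and 1 was lower, with a median of 0.44. Plxnc1, a semaphorin receptor, stood at 24.9 CPM in Penk-high cells and had 0 reads in Penk-low cells, and Sema4a, a membrane semaphorin, stood at 16.2 CPM in Penk-high cells and also had 0 reads in Penk-low cells. Each rested on few cells, 8 and 7 of 29. Unc5d, a netrin receptor, stood at 24.3 CPM in Penk-high cells and 0.447 CPM in Penk-low cells, but its log2 ratio was -0.45 within K75 to K99. The member that was lower was Ephb1, a receptor of B-type ephrins, at 0.299 CPM in Penk-high cells and 23.8 CPM in Penk-low cells. Within K75 to K99 the list had 7 of 38 members higher and 9 lower with a median of -0.14 (all genes: 13.5% and 31.9%). Within the other titles it had 16 higher and 4 lower with a median of 0.43 (all genes: 33.8% and 9.6%).

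Of 39 measured synaptic adhesion genes 9 were higher (23.1%, against 13% of all genes) and 1 was lower (2.56%, against 7.11%), with a median of 0.41, or -0.64 within K75 to K99 and 0.83 within the other titles. Within K75 to K99 2 of the 39 were higher and 12 lower (all genes: 13.5% and 31.9%). Within the other titles 13 were higher and 1 lower (all genes: 33.8% and 9.6%). Tenm4, a teneurin that binds latrophilins across the synapse, stood at 123.6 CPM in Penk-high cells and 20.5 CPM in Penk-low cells, with reads in 23 of 29 and 8 of 26 cells. It stood at 14.4 CPM in control cells. The log2 ratio was 1.33 within the other titles. Within K75 to K99 it was 3.29, by the cell K96 at 292 CPM, and -0.79 without it. Slitrk1, a postsynaptic adhesion protein, stood at 33.03 CPM in Penk-high cells and 5.93 CPM in Penk-low cells. Flrt2, a ligand of latrophilins and Unc5 receptors, stood at 55.2 CPM in Penk-high cells and 6.42 CPM in Penk-low cells, but its log2 ratio was -3.32 within K75 to K99. Cntn5, a contactin, stood at 35.1 CPM in Penk-high cells and 2.91 CPM in Penk-low cells.

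Of 51 measured ion channel genes 8 were higher (15.7%, against 13% of all genes) and 2 lower (3.92%, against 7.11%), with a median of 0.16, -0.75 within K75 to K99 and 1.38 within the other titles.

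Of 16 measured glutamate receptor genes 4 were higher (25%, against 13% of all genes) and none was lower, with a median of 0.51, or -1.14 within K75 to K99 and 1.16 within the other titles. Within K75 to K99 2 of the 16 were higher and 8 lower (all genes: 13.5% and 31.9%). Within the other titles 5 were higher and none lower (all genes: 33.8% and 9.6%). Grik2, a kainate receptor subunit, stood at 113.1 CPM in Penk-high cells, 19.4 CPM in Penk-low cells and 203 CPM in control cells, with ratios of 1.86 within K75 to K99 (0.34 without K78) and 4.37 within the other titles. Grm8, a presynaptic metabotropic receptor, stood at 94.4 CPM in Penk-high cells and 10.1 CPM in Penk-low cells, and Grik5 at 105.9 CPM in Penk-high cells and 30.7 CPM in Penk-low cells, but both ratios turned negative within K75 to K99. Gria4, an AMPA receptor subunit, stood at 67.6 CPM in Penk-high cells and 15.6 CPM in Penk-low cells, with a ratio of -0.88 within K75 to K99. Of 11 GABA receptor genes none was higher and Gabra5 (9.09% of the list, against 7.11% of all genes), an extrasynaptic subunit, was lower, at 91.4 CPM in Penk-high cells, 232 CPM in Penk-low cells and 388 CPM in control cells.

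**Figure D5:**
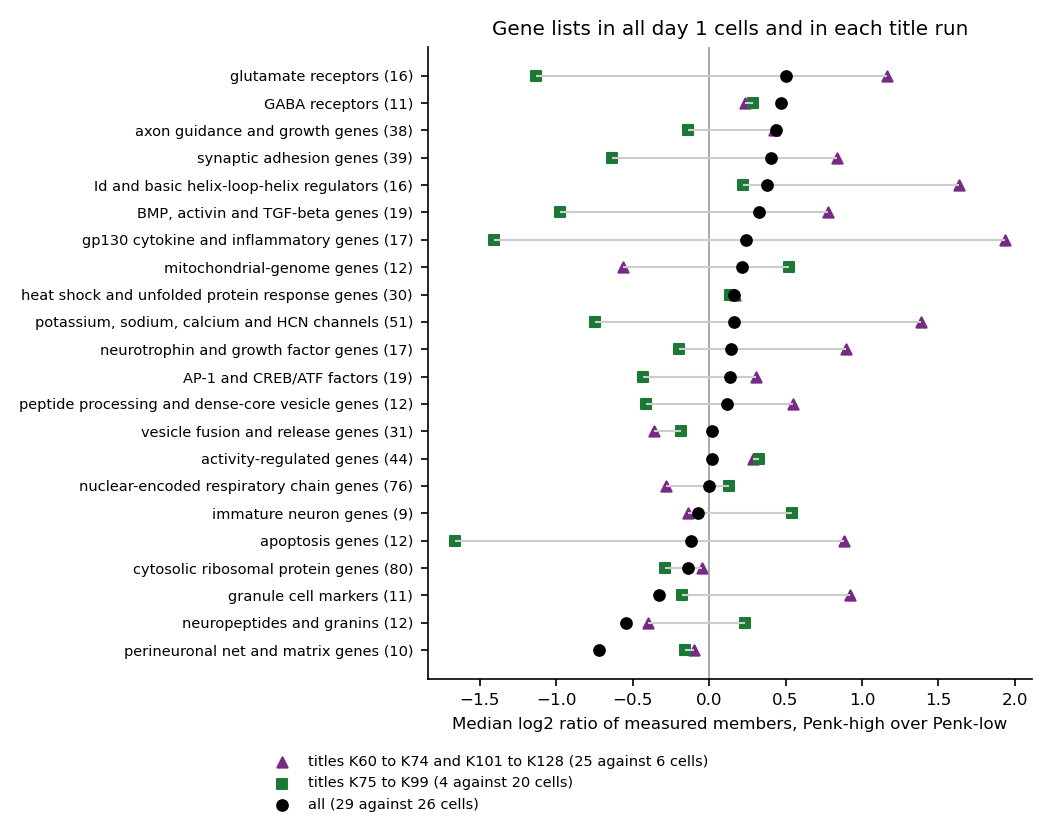
Median log2 ratio, Penk-high over Penk-low, of the measured members (number in brackets) of each list with at least 9 of them, in all day 1 cells (black), titles K75 to K99 (green squares) and the other titles (purple triangles). Channel, glutamate receptor and synaptic adhesion genes lie below 0 in one run and above 0 in the other, as does the median of all genes (-0.28 and 0.47).

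Of 31 vesicle fusion and release genes 2 were higher and 2 lower (6.45% each, against 13% and 7.11% of all genes), with medians of -0.19 within K75 to K99 and -0.36 within the other titles. Syt7, a slow calcium sensor of release, stood at 180 CPM in Penk-high cells and 44.2 CPM in Penk-low cells, but at 41.6 CPM (Penk-high) and 44.05 CPM (Penk-low) within K75 to K99. Cadps, a priming factor of dense-core vesicles, had a log2 ratio of -1.63, though 3.06 within titles other than K75 to K99, and Syt4 stood at 942 CPM in Penk-high cells and 1711 CPM in Penk-low cells. No member of 80 cytosolic ribosomal protein genes was higher or lower (against 13% and 7.11% of all genes), with a median of -0.14. Of 76 nuclear-encoded respiratory chain genes 2 were higher (2.63%) and none lower, with a median of 0.00. Dcx, a microtubule protein of immature neurons and the member of 9 such genes that was higher (11.1%, against 13% of all genes), stood at 19.1 CPM in Penk-high cells, from 8 cells, and 0.0260 CPM in Penk-low cells, with its level within K75 to K99 held by the cell K89. Of 30 heat shock and unfolded protein response genes 1 was higher (3.33%, against 13% of all genes) and none lower.

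Granule cell markers had none of 11 higher, 3 lower (27.3%) and a median of -0.33, against 13% and 7.11% of all genes. The median turned to 0.24 over the 7 markers that passed a filter of 40% of cells and 20 CPM. It was -0.18 within K75 to K99 and 0.92 within the other titles, where 3 of the 6 Penk-low cells were those chosen for lacking these markers, and 0.28 without them. Calb1, the calcium buffer calbindin, stood at 244 CPM in Penk-high cells, 665 CPM in Penk-low cells and 1249 CPM in control cells. Its log2 ratio was -0.18 within K75 to K99 and -1.13 within the other titles. C1ql2, a secreted synaptic organizer of mossy fibres, stood at 123.8 CPM in Penk-high cells, 250 CPM in Penk-low cells and 482 CPM in control cells. Its ratio was only -0.42 within K75 to K99 and -0.08 within the other titles, and 0.65 within K101 to K128. Prox1 stood at 224 CPM in Penk-high cells and 282 CPM in Penk-low cells, with ratios of -0.64 within K75 to K99 and 2.08 within the other titles. Glis3, a zinc finger factor, stood at 7.75 CPM in Penk-high cells and 36.7 CPM in Penk-low cells, but its ratio was 0.38 within K75 to K99, where K78 held it. Of the perineuronal net and matrix genes Spock1, a secreted proteoglycan, stood at 53.4 CPM in Penk-high cells and 212 CPM in Penk-low cells.

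Markers of other cell types moved with the classes as well. All 6 measured microglia markers were lower in Penk-high cells in the pooled comparison (against 7.11% of all genes), with a median of -1.79. The median was -6.72 within K75 to K99, with all 6 lower (31.9% of all genes). It was 2.17 within the other titles, with 4 higher and none lower (33.8% and 9.6% of all genes). Their summed level was 374 CPM in Penk-high cells against 1353 CPM in Penk-low cells. The summed level ran from 0 to 6357 CPM (median 25.9) in single Penk-high cells and from 0 to 25429 CPM (median 51.2) in single Penk-low cells, so 1 cell titled K79 held most of it. Without the 7 cells at 1000 CPM or more the median was 0.43. Interneuron markers summed to 648 CPM in Penk-high cells and 735 CPM in Penk-low cells, nearly all from Gad1 (590 CPM in Penk-high and 730 CPM in Penk-low cells), the glutamate decarboxylase that granule cells also express, whose ratio was 0.21 within K75 to K99 and -0.84 within the other titles. K70 held the most Gad1, 5633 CPM. Without the cells short of granule cell markers the ratio of Gad1 was 0.57 within the other titles and 0.20 pooled. Within K101 to K128 it was 1.18. Gad2 stood at 50.8 CPM in Penk-high cells and 5.04 CPM in Penk-low cells, with a ratio of -2.70 within K75 to K99. Astrocyte markers summed to 198 CPM in Penk-high cells and 120.7 CPM in Penk-low cells, oligodendrocyte lineage markers to 170 CPM in Penk-high cells and 71.2 CPM in Penk-low cells, and endothelial markers to 39.1 CPM in Penk-high cells and 8.50 CPM in Penk-low cells. In single cells the astrocyte sum had a median of 160 CPM in Penk-high cells (0 to 1034) and 9.02 CPM in Penk-low cells (0 to 1411), and the oligodendrocyte lineage sum 68.02 CPM in Penk-high cells (0 to 956) and 2.79 CPM in Penk-low cells (0 to 677). The endothelial sum had a median of 0.219 CPM in Penk-high cells (0 to 732) and 0.319 CPM in Penk-low cells (0 to 198). Its only measured member, Pecam1, was lower in Penk-high cells. Of the 14 microglia markers 1 was at 0 in each class, of the 11 astrocyte markers 3 in Penk-high and 2 in Penk-low cells, and of the 12 interneuron markers 3 in Penk-high and 8 in Penk-low cells. The part of these transcripts in the differences above was not tested.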

How the data were processed

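The labels name cytosol drawn by patch pipette and the Nextera XT kit, and the submitters' processing notes name Trimmomatic, STAR, featureCounts and GRCm38. No source used here gives versions or the counting strand, so reads of overlapping genes may not be separable; of the 73 genes followed through the alternatives, 10 overlap another protein-coding gene. The authors deposited counts (whole numbers; 22800 genes, 291 cells). A scaled signal, deposited for 252 cells, equals the counts of each cell times 1 factor (0.187 to 287) and served only as an alternative. The tables' names point the other way, and the units were settled on the values. Columns were matched to samples by title, and 13 of 304 samples found none and were not analysed here.

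CPM was computed per cell from its total, and class levels from summed counts. Penk-high and Penk-low cells were set by the limits in the report. The Clopper-Pearson and Poisson intervals are at 95%. The labels name no molecular identifiers, so intervals cover counting error only, and for the 24 highest and lowest genes they are narrow because depth is high (2655957 to 27708910 reads per day 1 cell). Genes were named by the rule in the report (4 ratios of 1 sign, a read in at least 40% of thinned cells of the higher class, the sign of the summed ratio kept in titles K60 to K99 and K101 to K128; predicted, Riken, mitochondrial and ribosomal protein genes left out), plus up to 4 members of each of 31 lists. Some genes that met the rules are not reported here. Further list members were chosen after their values were seen. The members and lists were chosen with earlier results of these data known. The random thinning was redrawn after a first draw had been seen, which changed 3 of the 12 highest genes. The procedure was tested on simulated data. Python 3.11.15, numpy 2.4.6, pandas 2.3.3 and scipy 1.17.1 were used. No p-value was computed from cells.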

Additional observations from a re-analysis of the deposited data

Results flagged for a closer look

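Libraries outside the comparison also held Penk above the highest control cell (619 CPM). Of the 2 cells of the other side of the brain at day 1, K67 held 2164 CPM. Of the 5 day 1 libraries of the injected side that were labelled as failing quality control and had a column, K63 held 65840 CPM, K124 held 28070 CPM and K126 held 13390 CPM. These values were not used above.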

How the results depend on the processing

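Against 1216 higher and 664 lower genes, the counts that moved by over 1.5 times were 1327 lower with the deposited scaled signal and 1064 lower with median-of-ratios size factors, which rest on 60 genes read in every cell. They were 2382 higher and 1717 lower without a filter, 571 and 286 with the 40% and 20 CPM filter, and 733 and 404 with 10 CPM added. Within titles they were 1487 lower (K60 to K99), 3667 higher and 1274 lower (K101 to K128), 2979 lower (K75 to K99), 3152 higher (K60 to K74 with K101 to K128) and 3595 higher there without cells short of granule cell markers (25 Penk-high and 3 Penk-low cells). Higher genes were 64.7% of the calls, or 53.1% with the scaled signal, which moved the median of all genes to -0.06 (0.07 in CPM). The last 3 of these sets, the removal of single cells within K75 to K99, the removal of cells under 3000 detected genes and that of the 4 cells short of granule cell markers were chosen after seeing the data.

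Of the 24 highest and lowest genes 22 kept their sign in 20 alternatives; the rule that named them required this in 5 of the 20 (mean, thinned, without the top cell, K60 to K99 and K101 to K128). Dpy19l1 was at -0.67 within K75 to K99, and Nrd1 at 0.079 within K60 to K74 with K101 to K128 without cells short of granule cell markers. In that set the sign also turned, among others, for Cadps (4.62), Nucb2 (2.41), Pdyn (7.74), C1qb (6.18), Prox1 (1.44), Csf1r (1.14) and Gad1 (0.57). It turned there too for the medians of microglia markers (4.21), neuropeptides (0.016) and perineuronal net and matrix genes (0.66). With another random thinning 9 of the 12 highest and 11 of the 12 lowest were named again (Arhgef17, Guf1, Pdk1 and Ddx20 were not). Within K75 to K99 the sign also turned for Syt7 (-0.082), Cartpt (-0.15), Gria4 (-0.88), Nr4a2 (0.48), Gad2 (-2.70), Unc5d (-0.45), Flrt2 (-3.32), Grik5 (-2.82), Grm8 (-1.80) and Glis3 (0.38). It turned there too for Npy (0.068), Pdyn (1.28), Chga (0.23), Bdnf (-0.20), Inhba (0.95), Fos (-0.43) and Gad1 (0.21). List medians that turned there include those of neuropeptides (0.24) and glutamate receptors (-1.14). Within K101 to K128 the sign turned for Npy (5.04), Pdyn (7.88), C1qb (6.83), Prox1 (1.06), Pcsk1 (-0.37), Nr4a2 (1.59), Ltbp1 (-0.16), Cadps (1.99), Grik5 (-0.10), Nucb2 (0.26) and Glis3 (2.45). It turned there too for Sorcs3 (-0.11), Gad1 (1.18), Csf1r (1.57), C1ql2 (0.65), Arc (0.59), Vgf (-0.92), Scg2 (-0.57) and Bdnf (-0.22). List medians that turned there include those of microglia markers (1.91) and neuropeptides (0.16). Within K60 to K99 the sign turned for Unc5d (-0.36), Timp1 (-0.60), Id2 (-0.036) and Inhba (0.53). Within K60 to K74 with K101 to K128 it turned for Cadps (3.06), Nucb2 (2.41), Scg2 (-0.42), Vgf (-0.72), Prox1 (2.08), Arc (0.59), Bdnf (-0.17), C1qb (6.18) and Csf1r (1.73). List medians that turned in the latter set include that of microglia markers (2.17). The sign also turned for Dcx (-1.11) with failed libraries and for microglia markers (0.43) without cells rich in them. Turns in the other alternatives are not all listed. Within K75 to K99 without the Penk-high cell that held most of the gene, signs turned against those with it for Gsg1l (-2.18), Arhgef17 (-0.11), Npnt (-0.27), Cdyl2 (-2.99), Tenm4 (-0.79), Sorcs3 (-2.14), Npy (-0.81), Pdyn (-0.19), Inhba (-1.56), Ltbp1 (-3.78), Timp1 (-1.24), Slitrk1 (-1.44), Cntn5 (-2.34), Dcx (-0.052), Glis3 (-5.13), Scg2 (-0.092), Vgf (-0.14), Chga (-0.065) and Gad1 (-0.48). The causes were not tested. No paired analysis was possible because the labels number cells only, and no animal links cells of the classes.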
